A study of Mus musculus with 24 samples.

Results

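Glycosyltransferases build the sugar chains of mucins, membrane glycoproteins and glycolipids. The genes described here are those of the array whose symbol begins with Fut, St3gal, St6gal, St8sia, B3gal, B4gal, B3gnt, Galnt, Gcnt, Mgat or Chst followed by a letter or a number. The rule used names alone and no measured value. It found 60 probe sets for 51 genes among 12488 probe sets, and none of the 60 listed more than 1 gene. They comprised 20 probe sets for sialyltransferases, 14 for galactose and N-acetylgalactosamine (GalNAc) transferases, 9 for polypeptide GalNAc transferases, 6 for fucosyltransferases, 4 for N-glycan branching enzymes, 4 for N-acetylglucosamine (GlcNAc) chain and branch enzymes and 3 for sulfotransferases.

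Expression was measured in total RNA from whole mouse tissue on 24 Affymetrix arrays in 8 groups of 3. The groups were conventional mice, which carry a microbiota, and germ-free mice, which carry none, each sampled at 4 sites: stomach corpus, jejunum, descending colon and rectum. The corpus was all of the stomach except the antrum, the descending colon was a 2 cm piece and the rectum was the adjoining last 1 cm of the gut, per the labels. The labels name no transgene and no agent for any group, and strain, sex and age are not stated there. Whether arrays of a group, or of different regions, came from the same animal is not stated, so p-values speak only of the spread between these arrays, which may be technical.

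Mucosal glycans are assembled in the endoplasmic reticulum and the Golgi from activated sugars. Polypeptide GalNAc transferases start the O-linked chains of mucins, Mgat enzymes branch the N-linked chains, galactose and GlcNAc transferases lengthen both, and fucosyltransferases and sialyltransferases cap the ends. Sialic acid and fucose at chain ends serve gut bacteria as food and as attachment sites, and fucosylation of the mouse intestine through Fut2 is a textbook case of a glycan feature that responds to the microbiota.

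The regional markers of 3 libraries went against their labels. Hoxb13, a homeobox gene of the hindgut, read 1626 in the library labelled conventional jejunum 3, where Apoa4, an apolipoprotein of fat absorption, read 13.8. In the one labelled conventional rectum 1, Hoxb13 read 41.7 and Apoa4 read 2766. In the one labelled germ-free corpus 3, Hoxb13 read 1399 and the gastric proton pump gene Atp4a read 176. This library lay close to germ-free colon 3, where Hoxb13 read 1375. The pancreas genes Prss2 and Cela1 read 3218 and 3568 in it, and 3255 and 3548 in germ-free colon 3. In the other colon libraries Prss2 read 4.3 to 2693. Whether both arrays came from the same RNA is not stated in the labels and was not tested. Other libraries carried markers of another region beside those of their own: germ-free colon 1 had the jejunal Fabp2 at 4005, and germ-free rectum 1 had Atp4a at 1968. The gastric pump gene reached 874 in germ-free jejunum 3, whose 6 corpus markers summed to a signal of 3217, against 252 to 450 in the other jejunum libraries, and germ-free corpus 2 had the colonic carbonic anhydrase gene Car1 at 1433. All stayed in the comparisons under their labels. Values are for all 24 libraries unless they are said to be without the first 3. The 5 remaining corpus libraries also held RNA of squamous epithelium, with a summed signal of 12 markers of 54521 to 72214 against 532 to 5044 in the groups of the other regions. In whole tissue, fewer cells of a type and less RNA per cell cannot be told apart.

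Of the 60 probe sets, 44 for 38 genes had a signal above 51.5 on at least 3 arrays and were tested, among 9033 tested in all. Signals under a floor of 21.2 were set to it before log2 was taken. The 16 that were not tested reached at most 95.7 on any array. They included every probe set of Fut1, Fut9, B3galt1, B3galt2, B3galnt1, B3galnt2, St3gal2, St3gal5, St6galnac1, St6galnac5, St8sia1, St8sia3 and Chst2. St6galnac1, which sialylates the GalNAc of mucins, did not exceed 12.3. Among the tested probe sets the highest medians over all arrays were those of B4galt1 (793), St6galnac6 (574) and Mgat1 (543), and the lowest were those of St3gal3 (18.6), a dim probe set of B4galnt2 (20.6) and Fut2 (23.2). A signal belongs to its probe set and does not rank transcripts of different genes. Where a gene has a pair of probe sets they are called brighter and dimmer, by their median over all arrays.

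Promoters are shown for 3 sialyltransferase genes that were high in the colon, St6gal1, St6galnac6 and St6galnac4, and, beside them, for B4galnt2, which was high in the jejunum. The sequences are from RefSeq on GRCm38.p6 and run from 250 bases before to 50 bases after the start, along the gene's strand. RefSeq promoters were at hand for 35 of the 51 genes, and of the 3 for St6gal1 the one with motif matches is printed. Capitals mark the motif matches described after the sequences.
St6gal1, chr16:23224490-23224789, + strand: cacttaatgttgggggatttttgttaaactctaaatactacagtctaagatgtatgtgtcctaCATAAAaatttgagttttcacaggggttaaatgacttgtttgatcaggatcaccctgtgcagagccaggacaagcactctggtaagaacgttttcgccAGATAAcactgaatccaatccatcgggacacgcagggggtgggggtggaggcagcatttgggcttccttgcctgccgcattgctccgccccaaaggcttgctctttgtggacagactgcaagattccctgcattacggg
St6galnac6, chr2:32599459-32599758, + strand: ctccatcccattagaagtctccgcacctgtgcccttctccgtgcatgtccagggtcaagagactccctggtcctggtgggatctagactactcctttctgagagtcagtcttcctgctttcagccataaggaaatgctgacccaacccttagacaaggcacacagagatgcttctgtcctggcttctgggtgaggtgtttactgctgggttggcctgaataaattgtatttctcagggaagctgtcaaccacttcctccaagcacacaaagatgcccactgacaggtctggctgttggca
St6galnac4, chr2:32586828-32587127, + strand: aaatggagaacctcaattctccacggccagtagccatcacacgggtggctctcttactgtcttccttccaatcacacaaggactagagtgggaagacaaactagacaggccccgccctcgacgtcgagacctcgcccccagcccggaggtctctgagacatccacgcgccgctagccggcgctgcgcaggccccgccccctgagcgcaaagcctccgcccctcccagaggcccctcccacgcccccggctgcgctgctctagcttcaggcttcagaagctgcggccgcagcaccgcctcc
B4galnt2, chr11:95914822-95915121, - strand: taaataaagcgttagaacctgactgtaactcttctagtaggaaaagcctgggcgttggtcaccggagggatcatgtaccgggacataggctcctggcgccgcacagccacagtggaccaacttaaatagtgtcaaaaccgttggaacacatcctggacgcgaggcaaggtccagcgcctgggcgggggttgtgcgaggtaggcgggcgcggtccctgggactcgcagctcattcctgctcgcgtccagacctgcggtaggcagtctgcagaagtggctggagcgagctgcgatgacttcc
Both strands were searched for TATAAA (the TATA box), for TTTATG (letters known for Cdx factors), for AGATAA (letters known for Gata factors) and for CACGTG (an E-box, which reads the same on both strands). In the printed St6gal1 promoter the Cdx letters matched on the opposite strand and the Gata letters on the printed strand, with no overlap, and the other two promoters of the gene held none of the motifs. The promoters printed for St6galnac6, St6galnac4 and B4galnt2 held none of the motifs. Over the 51 promoters of member genes, the TATA box letters were present in 1.96%, the Cdx letters in 5.88%, the Gata letters in 9.8% and the E-box in 3.92%. Over all 32851 promoters of the same length the shares were 13.6%, 11.9%, 11.2% and 7.15% in that order. A match is a description of letters and not a binding site.

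A moderated F test in limma for any difference between the 4 regions, averaged over both microbial states, called 17 of the 44 members at a Benjamini-Hochberg adjusted p under 0.05, a share near the background of 35.2% of all probe sets tested. With the 3 libraries left out it called 27 of 43, against 44.8%. Across all comparisons, 17 genes were called with all libraries and 24 without the 3. Germ-free minus conventional differences, described further on, called none of the 44 with all libraries.

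Several sialyltransferases were higher in the descending colon. Of 13 tested sialyltransferase probe sets, 6 were higher in colon than in corpus and 5 were higher than in jejunum, and none was lower in either comparison. Leaving out the 3 libraries, 7 and 6 were higher, beside 5 and 6 probe sets of other families. Over all families, 10 of the 44 members were called between colon and corpus, all 10 higher in colon, against a background of 18.3% called, of which 9.49% were higher and 8.77% lower. The median log2 difference of the 44 was 0.25, beside 0.0056 over all 9033. The count by direction covers only members that passed the filter on signal. St6galnac6 and the brighter St6galnac4 probe set passed it only through libraries of colon and rectum or with hindgut markers. The dimmer B3galnt1 probe set was left out, at 37.3 to 65.3 in the corpus apart from germ-free corpus 3 and 4 to 21.4 in the colon. So was Fut1, at 18.9 to 60.1 in the corpus and 12.9 to 31 in the colon. After omission of the 3 libraries 14 of 43 were called, 12 higher and 2 lower, against 30.0%, and the 10 were among the 14.

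St6galnac6, a sialyltransferase of gangliosides and Lewis-type glycans, was at or near the floor in most libraries of corpus and jejunum. In the corpus its signal was 8.5, 13.9 and 13.1 in conventional and 7.2, 9.6 and 754 in germ-free mice. In the jejunum it was 13.8, 12.4 and 1326 in conventional and 7.7, 31.2 and 15.9 in germ-free mice. In the colon it was 1421, 1577 and 426 in conventional and 755, 1045 and 722 in germ-free mice, and in the rectum 6.8, 1233 and 2105 against 1623, 987 and 1640. Both high values outside the hindgut and the low value in the rectum came from the 3 libraries whose markers opposed their labels, and the other libraries of colon and rectum lay above all others of corpus and jejunum. The log2 difference of colon minus corpus was 4.55 ± 1.09 (SE; limma, adjusted p = 0.0055). Colon minus jejunum was 4.33 ± 1.09 (adjusted p = 0.0137). Without the 3 libraries the colon was at least 42.6-fold above the corpus, whose arrays all lay at the floor, and 40-fold above the jejunum, a lower bound too, since 4 of its 5 arrays lay at the floor.

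**Figure D1:**
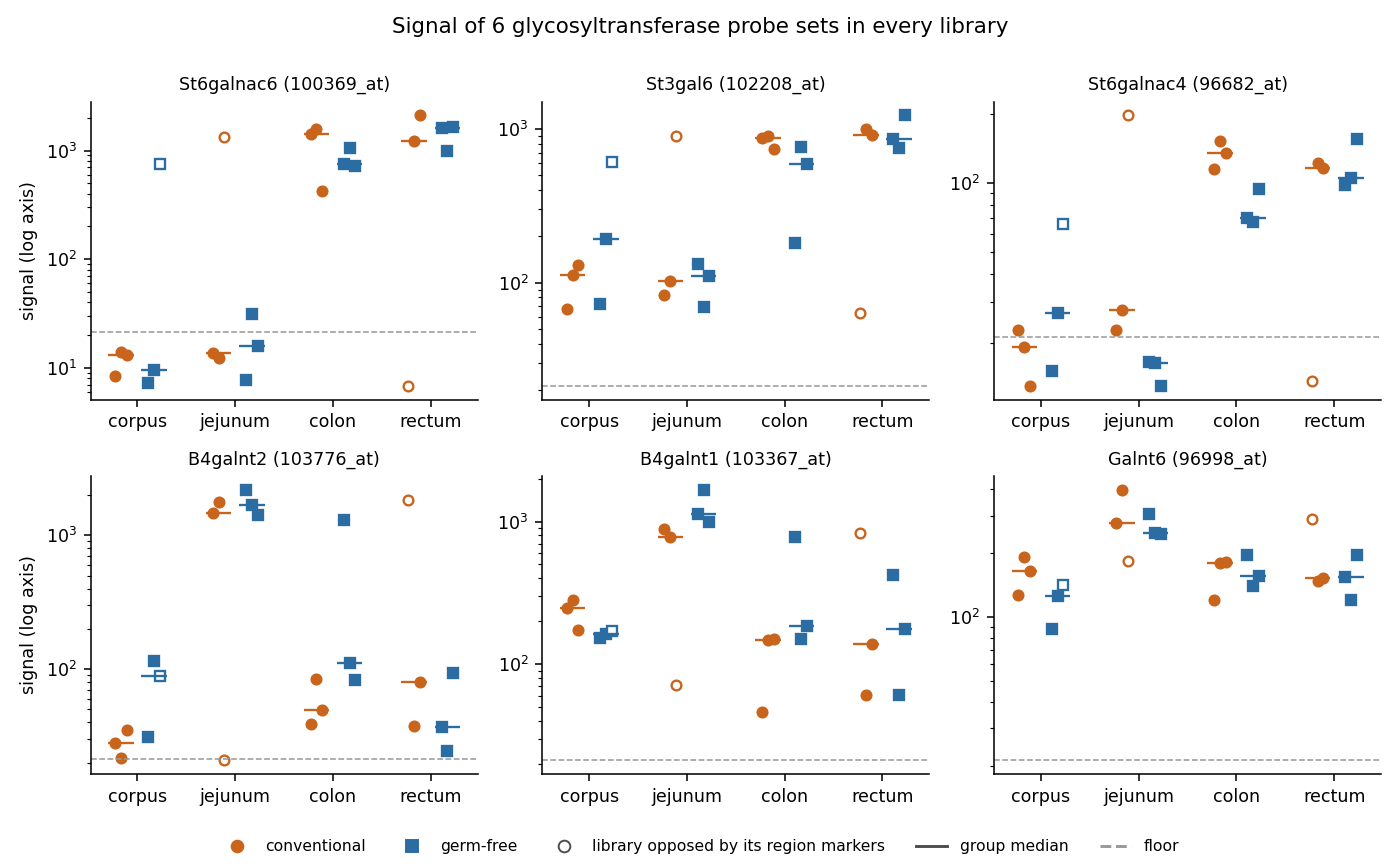
Signal of 6 probe sets (vertical log axis) by region in conventional (circles) and germ-free (squares) libraries, with each group's median as a bar, the floor of 21.2 as a dashed line and the 3 libraries opposed by their region markers as open symbols. St6galnac6, St3gal6 and St6galnac4 were high in colon and rectum and B4galnt2 and B4galnt1 in jejunum. The open symbols lay away from the rest of their groups, except that of germ-free corpus 3 for B4galnt2, B4galnt1 and Galnt6.

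St3gal6, which adds sialic acid to galactose on lactosamine chains, had lowest, median and highest signals of 67.1, 121 and 607 in the corpus and 69.1, 106 and 892 in the jejunum. In the colon they were 180, 749 and 903, and in the rectum 63.7, 885 and 1222. The colon value of 180 was that of germ-free colon 1 and the rectum value of 63.7 that of conventional rectum 1, and the high corpus and jejunum values were those of germ-free corpus 3 and conventional jejunum 3. The regions overlapped, colon and corpus also without the 3 libraries. Colon minus corpus was 2.08 ± 0.66 on the log2 scale (limma, adjusted p = 0.0327), and 2.47 ± 0.32 without the 3 libraries (adjusted p = 7.02e-06). Colon minus jejunum was 2.10 ± 0.66 (adjusted p = 0.0384), and 2.64 ± 0.32 without them (adjusted p = 5.01e-06).

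St6galnac4, which adds sialic acid to the GalNAc of sialylated O-glycans, read by its brighter probe set 12.9 to 26.9 in the corpus, apart from germ-free corpus 3 at 66.3. In the jejunum it read 12.9 to 27.9, apart from conventional jejunum 3 at 197. The colon libraries read 67.3 to 152 and the rectum libraries 98.0 to 156, apart from conventional rectum 1 at 13.6. Colon minus corpus was 1.90 ± 0.46 on the log2 scale (limma, adjusted p = 0.00648) and colon minus jejunum 1.63 ± 0.46 (adjusted p = 0.0237). They were 2.15 ± 0.18 and 2.13 ± 0.18 without the 3 libraries (adjusted p = 2.19e-08 and 4.47e-08). Some corpus and jejunum signals lay under the floor, so these differences are lower bounds. The dimmer probe set reached 61.1 and was not tested. St8sia5, which lengthens sialic acid chains on gangliosides, read 24.4 to 138 in the corpus and 96.6 to 177 in the colon, a difference of 1.29 ± 0.37 (adjusted p = 0.019), and 1.56 ± 0.33 without the 3 libraries (adjusted p = 0.00113).

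St6gal1, which caps N-linked chains with sialic acid, has 2 probe sets, whose log2 signals had a Pearson r of 0.919 over the 24 arrays, which share regions. By the brighter probe set the lowest, median and highest signals were 55.8, 76.5 and 366 in the corpus, 35.8, 92.9 and 496 in the jejunum, 308, 443 and 653 in the colon and 175, 551 and 656 in the rectum. By the dimmer one they were 12.4, 24.3 and 198, 15.5, 46.6 and 205, 89.4, 185 and 288, and 67.4, 177 and 254 in the same order of regions. The medians of colon and rectum stood above those of jejunum and corpus by both probe sets, and the overlap came from conventional jejunum 3, germ-free corpus 3 and conventional rectum 1. Colon minus corpus was 2.18 ± 0.41 on the log2 scale by the brighter probe set (limma, adjusted p = 0.000798) and 2.18 ± 0.44 by the dimmer one (adjusted p = 0.00135). The latter is a lower bound, since the conventional corpus signals of the dimmer probe set, 12.4 to 18.7, lay under the floor. Colon minus jejunum was 2.22 ± 0.41 by the brighter probe set (adjusted p = 0.00291) and 1.67 ± 0.44 by the dimmer one (adjusted p = 0.0165). With the 3 libraries left out, colon minus corpus was 2.57 ± 0.20 and 2.61 ± 0.22, and colon minus jejunum 2.52 ± 0.20 and 1.99 ± 0.22, by the brighter and the dimmer probe set (adjusted p from 7.57e-09 to 1.82e-06). Neighbours in the order were not told apart by the brighter probe set: jejunum minus corpus was -0.04 (95% confidence interval -0.90 to 0.82) and rectum minus colon 0.08 (-0.78 to 0.94). By the dimmer one jejunum minus corpus was 0.50 ± 0.44, and 0.62 ± 0.24 without the 3 libraries (adjusted p = 0.0443).

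Enzymes of other families were also higher in colon than in corpus. Fut8, which places the core fucose on N-glycans, read 82.6 to 313 in the corpus and 259 to 419 in the colon, a log2 difference of 1.26 ± 0.21 (limma, adjusted p = 0.000288). Fut4, which makes Lewis X structures, was higher by 0.67 ± 0.23 (adjusted p = 0.0495). Galnt10, a polypeptide GalNAc transferase, had medians of 70.9 in the corpus and 261 in the colon (1.82 ± 0.38, adjusted p = 0.00212). Mgat3, which adds the bisecting GlcNAc of N-glycans, read 10.1 to 69.3 in the corpus and 47.8 to 124 in the colon (1.60 ± 0.30, adjusted p = 0.000666). Each of these 4 had its highest corpus value in germ-free corpus 3. The differences without the 3 libraries were 1.40 ± 0.19 for Fut8, 0.76 ± 0.21 for Fut4 and 2.25 ± 0.20 for Galnt10 (adjusted p from 3.57e-08 to 0.0105), and Mgat3 was at least 3.69-fold higher, with all corpus arrays at the floor.

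Calls between colon and corpus that appeared without the 3 libraries concerned 4 more genes. Gcnt1, which branches O-glycans, was then higher in colon by 0.52 ± 0.16 (limma, adjusted p = 0.0223), and St3gal1, which sialylates galactose of O-glycans, by 0.85 ± 0.24 (adjusted p = 0.0122). Galnt2, a polypeptide GalNAc transferase, was lower (-0.57 ± 0.16, adjusted p = 0.00874), as was Mgat2, which starts the second arm of complex N-glycans (-0.68 ± 0.23, adjusted p = 0.0295).

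In the jejunum the leading enzymes were B4galnt2 and B4galnt1, which add GalNAc to galactose of glycoproteins and glycolipids. Between jejunum and corpus 11 of the 44 members were called, 9 higher and 2 lower in jejunum, against a background of 32.9% called, of which 13.7% were higher and 19.2% lower. The median log2 difference of the members was 0.06, beside -0.10 over all probe sets tested. The dimmer B4galnt2 probe set passed the filter on signal only through libraries of jejunum or with jejunal markers. Without the 3 libraries 17 of 43 were called, 13 higher and 4 lower, against 39.4%, and the 11 were among the 17.

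B4galnt2, which makes the Sda blood group structure, read by its brighter probe set 28.2, 21.8 and 34.8 in conventional and 31.2, 115 and 88.7 in germ-free corpus. In the jejunum it read 1458, 1763 and 20.8 in conventional and 2197, 1676 and 1420 in germ-free mice. In the colon it read 39.1, 84.5 and 49.2 against 1301, 111 and 83.5, and in the rectum 1831, 37.7 and 80.4 against 36.9, 24.4 and 93.5. The low jejunum value was that of conventional jejunum 3, and the high values in colon and rectum were those of germ-free colon 1 and conventional rectum 1. Jejunum minus corpus was 4.22 ± 0.99 on the log2 scale (limma, adjusted p = 0.00246). The dimmer one gave 3.02 ± 0.72 (adjusted p = 0.00269), and the pair had r = 0.963 over the 24 arrays. Most corpus and colon signals of the dimmer one lay under the floor, so the size of its differences depends on the floor. Colon minus jejunum was -2.86 ± 0.99 by the brighter probe set (adjusted p = 0.0579) and -2.36 ± 0.72 by the dimmer one (adjusted p = 0.0321). These differences became -3.90 ± 0.56 and -2.97 ± 0.47 without the 3 libraries (adjusted p = 3.19e-05 and 8.41e-05), and jejunum minus corpus was 5.36 ± 0.59 and 3.63 ± 0.49 (adjusted p = 5.31e-07 and 7.35e-06).

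B4galnt1, which builds ganglioside cores, was highest in the jejunum by its medians too, with lowest, median and highest signals of 152, 172 and 282 in the corpus and 71.2, 940 and 1674 in the jejunum. In the colon they were 45.9, 151 and 773, and in the rectum 60.9, 158 and 833. The highest colon and rectum values were again those of germ-free colon 1 and conventional rectum 1, and the lowest jejunum value that of conventional jejunum 3. Jejunum minus corpus was 1.81 ± 0.66 on the log2 scale (limma, adjusted p = 0.0401) and colon minus jejunum -2.01 ± 0.66 (adjusted p = 0.0462). They were 2.42 ± 0.49 and -2.60 ± 0.47 without the 3 libraries (adjusted p = 0.000601 and 0.000365).

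Of the remaining enzymes, 6 were called higher in jejunum than in corpus. Mgat3 was higher by 1.47 ± 0.30 (limma, adjusted p = 0.000707) and B4galt6, which makes the lactosylceramide from which gangliosides grow, by 1.2 ± 0.26 (adjusted p = 0.00152). Galnt10 was higher by 1.07 ± 0.38 (adjusted p = 0.0384), Galnt6, a polypeptide GalNAc transferase, by 0.99 ± 0.21 (adjusted p = 0.00131), and Fut8 by 0.64 ± 0.21 (adjusted p = 0.0252). Mgat1, which adds the GlcNAc that opens N-glycan branching, was higher by 0.67 ± 0.17 by its brighter probe set (adjusted p = 0.00531). The dimmer one went the opposite way (-0.44 ± 0.20, and -0.58 ± 0.21 with adjusted p = 0.0339 without the 3 libraries), so the direction for Mgat1 depends on the probe set. B3gnt2, which extends lactosamine chains, was lower in jejunum by -0.94 ± 0.26 (brighter probe set, adjusted p = 0.00784), while the dimmer one gave -0.03 ± 0.42 (adjusted p = 0.966), and the pair had r = 0.154. B4galt2, a galactosyltransferase, was lower by -0.99 ± 0.30 (adjusted p = 0.0148). These calls stood without the 3 libraries, with Galnt10 at 1.34 ± 0.21, B4galt6 at 1.38 ± 0.28, Galnt6 at 1.2 ± 0.19, Fut8 at 0.71 ± 0.20, the brighter Mgat1 probe set at 0.89 ± 0.15, that of B3gnt2 at -1.09 ± 0.25 and B4galt2 at -1.19 ± 0.33 (adjusted p from 3.8e-05 to 0.0084), and Mgat3 at least 3.1-fold higher.

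Between jejunum and corpus 4 more genes were called without the 3 libraries, besides St6gal1 by its dimmer probe set. Galnt1, a polypeptide GalNAc transferase, was higher in jejunum by 0.69 ± 0.16 (limma, adjusted p = 0.00218), St3gal1 by 0.85 ± 0.26 (adjusted p = 0.013) and St8sia5 by 1.07 ± 0.34 (adjusted p = 0.018). Galnt2 was lower by -0.53 ± 0.16 (adjusted p = 0.0144).

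Between descending colon and jejunum 10 of the 44 members were called, 7 higher and 3 lower in colon, against a background of 14.4% called, of which 9.10% were higher and 5.34% lower. This count holds St6galnac6, the brighter St6galnac4 and the dimmer B4galnt2 probe sets, which passed the filter only as described above. Besides the sialyltransferases described above, B3gnt2 was higher in colon by 1.27 ± 0.26 (brighter probe set; limma, adjusted p = 0.00438) and Galnt4, a polypeptide GalNAc transferase, by 0.65 ± 0.19 (brighter probe set, adjusted p = 0.0254). The dimmer B3gnt2 probe set gave 0.31 ± 0.42 (adjusted p = 0.682). Galnt6 was lower by -0.75 ± 0.21 (adjusted p = 0.0239), beside B4galnt1 and B4galnt2. With the 3 libraries left out these were 1.44 ± 0.24 for B3gnt2, 0.77 ± 0.17 for Galnt4 and -0.89 ± 0.18 for Galnt6 (adjusted p = 0.000156, 0.00198 and 0.000976). Without the 3 libraries 19 of 43 were called, 12 higher and 7 lower, against 25.4%, and the 10 were among the 19. This count moved with single libraries: it was 3 without conventional jejunum 1, 3 without conventional jejunum 2 and 16 without conventional jejunum 3. It was 6 without conventional colon 2, 6 without germ-free colon 2, 6 without germ-free colon 3 and 6 without germ-free jejunum 1.

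The calls added between colon and jejunum without the 3 libraries covered 8 more probe sets besides the brighter one of B4galnt2. Higher in colon were Galnt10 (0.91 ± 0.20), Fut4 (0.73 ± 0.21), Fut8 (0.69 ± 0.19), the dimmer Galnt4 probe set (0.56 ± 0.19) and St6galnac2, which sialylates O-glycans (0.53 ± 0.19). Lower in colon were B4galt6 (-0.85 ± 0.27), Galnt1 (-0.79 ± 0.16) and the brighter Mgat1 probe set (-0.58 ± 0.14). Their limma adjusted p values ran from 0.000836 for Galnt1 to 0.0492 for St6galnac2.

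**Figure D2:**
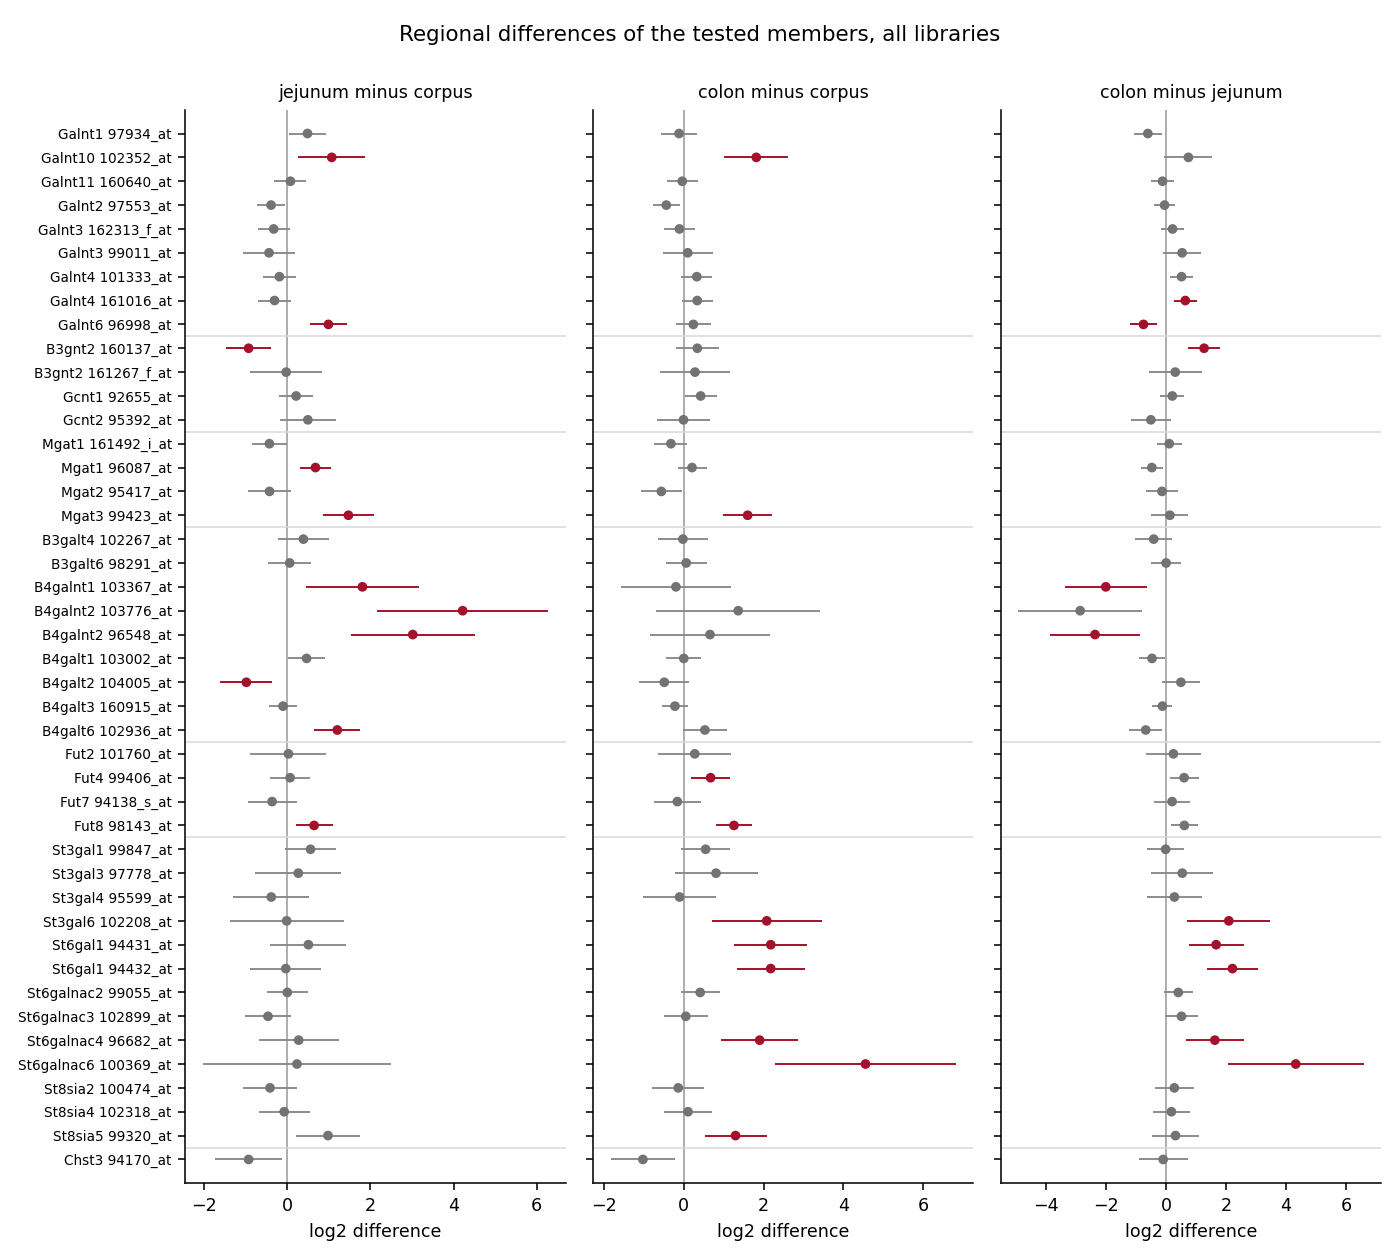
Log2 difference (horizontal axis) with its 95% confidence interval for the 44 tested members in 3 regional comparisons with all libraries, grouped by family and in red where the limma adjusted p was under 0.05. Red points to the right in the colon comparisons are mostly sialyltransferases, and B4galnt1 and B4galnt2 lie to the right in jejunum minus corpus and to the left in colon minus jejunum.

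Single libraries decided several of these calls. For St3gal6 the call of colon over corpus held only in the omissions of conventional colon 3, conventional corpus 3, germ-free colon 1 or germ-free corpus 3, and was lost without any other library of the comparison (limma, adjusted p up to 0.111). The calls of colon against jejunum for St3gal6 and for the dimmer B4galnt2 probe set held only without conventional jejunum 3, germ-free colon 1 or germ-free jejunum 3 (up to 0.118 and 0.103). For B4galnt1 the call against corpus held only without conventional jejunum 3, germ-free corpus 3 or germ-free jejunum 3 (up to 0.114), and that against colon only without conventional jejunum 3 or germ-free colon 1 (up to 0.136). Fut4 kept its call only without conventional corpus 2, germ-free colon 1 or germ-free corpus 3 (up to 0.163), and Galnt10 its call of jejunum over corpus only without conventional jejunum 1, germ-free corpus 3 or germ-free jejunum 3 (up to 0.13).

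Other calls were lost in fewer omissions. St6galnac4 lost its call against jejunum without conventional jejunum 1, conventional jejunum 2, germ-free colon 3 or germ-free jejunum 1 (limma adjusted p up to 0.0839), the dimmer St6gal1 probe set without conventional jejunum 1 or 2 (up to 0.0547) and St8sia5 its call against corpus without germ-free corpus 2 (0.061). Galnt4 lost its call without conventional colon 2, conventional jejunum 1 or 2, germ-free colon 1 or germ-free jejunum 2 (up to 0.0893). Galnt6 lost its call against colon without conventional colon 1, conventional jejunum 1 or 2, germ-free colon 2 or germ-free jejunum 1 (up to 0.08). Fut8 lost its call of jejunum over corpus without conventional corpus 1, conventional jejunum 3, germ-free corpus 1 or germ-free jejunum 1 or 3 (up to 0.0849). No other regional call named above for all libraries was lost in an omission of 1 library, and none changed sign.

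Some calls also depended on a setting. With no filter on dim probe sets 7 were lost, for Galnt10 and B4galnt1 in jejunum minus corpus, Fut4 and St3gal6 in colon minus corpus, and St3gal6, B4galnt1 and the dimmer B4galnt2 probe set in colon minus jejunum (limma, adjusted p of 0.0672 to 0.0914). A floor at the 40th percentile, above many of the low signals, ended the calls of Mgat3 over corpus in jejunum and colon (adjusted p = 0.171 and 0.0831), of St6galnac4 over jejunum (0.129), of Fut4 (0.052) and of B4galnt1 between colon and jejunum (0.0537). A floor at the 10th percentile ended the call of the dimmer B4galnt2 probe set between colon and jejunum (0.102). Equalised array medians ended those of St3gal6 and Galnt4 there (0.0502 and 0.128), a fit without the intensity trend those of Fut4 (0.0508) and B4galnt1 against colon (0.0528), and quantile normalization that of B4galt2 (0.0503).

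Markers of other cell types differed between regions too, in orders of their own. The summed signal of 8 goblet cell markers was 1657 to 4904 in corpus libraries other than germ-free corpus 3 and 43206 to 82216 in the groups of the other regions. It overlapped between jejunum and colon, at 44111 to 65501 and 44211 to 55869. The summed signal of 7 smooth muscle markers was 20315 to 28674 in corpus libraries without germ-free corpus 3, 4935 to 9547 in jejunum without conventional jejunum 3 and 12465 to 24334 in colon. The part of these cell types in the regional differences was not tested.

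Descending colon and rectum gave no call. None of the 44 members differed between them, against a background of 0% called, and 0 members had an unadjusted p under 0.05 in limma. The median log2 difference of rectum minus colon was -0.02, beside -0.04 over all probe sets. For St6galnac6 the colon had a mean signal of 991 ± 442 (SD, n = 6) and the rectum one of 1266 ± 726, or 1518 ± 428 (n = 5) without conventional rectum 1.

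Genes that supply activated sugars to these enzymes were called between regions as well. Of 27 tested probe sets for 26 genes of nucleotide sugar supply, 14 were higher and 1 lower in colon than in corpus, 10 higher and 3 lower in colon than in jejunum, and 10 higher and 3 lower in jejunum than in corpus. Over all probe sets tested the shares called in these comparisons were 18.3%, 14.4% and 32.9%. The counts without the 3 libraries were 16 and 1, 11 and 3, and 13 and 3. Their median log2 difference was 0.65 between colon and corpus, beside 0.0056 over all probe sets, and 0.26 between colon and jejunum, beside 0.10. The list was chosen with earlier results of these data known.

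The sialic acid branch of that list was high in the same regions as the sialyltransferases above. Gne, which opens sialic acid synthesis, read 155 to 188 in the corpus apart from germ-free corpus 3 at 1443, and 301 to 337 in the jejunum apart from conventional jejunum 3 at 1403. It read 1077 to 1687 in the colon and 1390 to 1962 in the rectum, apart from conventional rectum 1 at 288. Colon minus corpus was 2.53 ± 0.49 on the log2 scale for Gne (limma, adjusted p = 0.00109), 2.12 ± 0.41 for Nans, the sialic acid synthase (adjusted p = 0.000945), and 1.26 ± 0.21 for Cmas, which activates sialic acid (brighter probe set, adjusted p = 0.000272). Slc35a1, which carries activated sialic acid into the Golgi, was higher by 1.92 ± 0.42 (adjusted p = 0.00271). Against the jejunum the differences were 1.80 ± 0.49 for Gne, 1.37 ± 0.41 for Nans and 2.07 ± 0.42 for Slc35a1 (adjusted p = 0.0204, 0.0301 and 0.00438), and 0.59 ± 0.21 for Cmas (adjusted p = 0.065, and 0.00525 without the 3 libraries). Leaving out the 3 libraries, colon minus corpus was 3.04 ± 0.11 for Gne, 2.55 ± 0.16 for Nans, 1.47 ± 0.16 for Cmas and 2.27 ± 0.22 for Slc35a1, and colon minus jejunum 2.16 ± 0.11 for Gne, 1.65 ± 0.16 for Nans and 2.40 ± 0.22 for Slc35a1 (adjusted p from 1.72e-13 to 6.65e-07). The dimmer probe set of Cmas gave 0.68 ± 0.49 against corpus (adjusted p = 0.393).

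**Figure D3:**
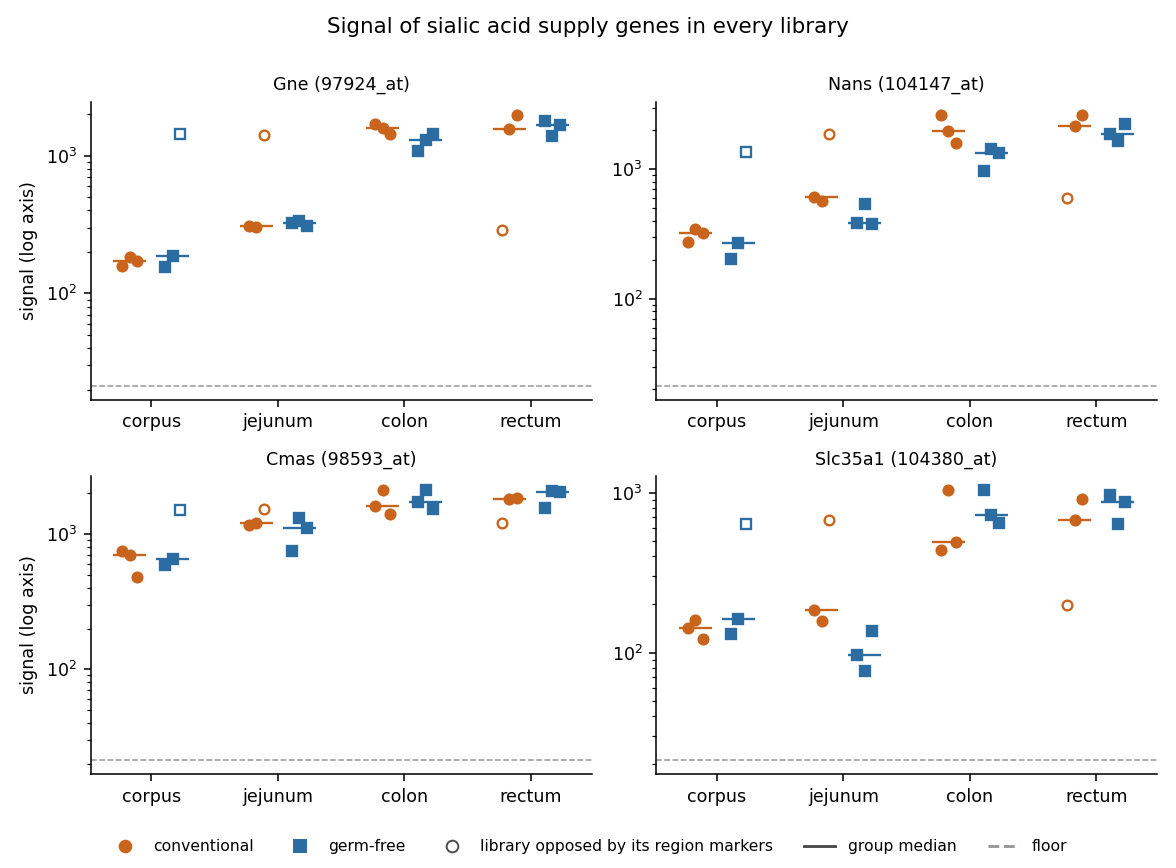
Signal (vertical log axis) of Gne, Nans, Cmas and Slc35a1 by region in conventional (circles) and germ-free (squares) libraries, with group medians as bars and the 3 libraries opposed by their markers as open symbols. The medians of all 4 genes were highest in colon and rectum, with Gne at 1077 to 1687 in the colon against 155 to 188 in 5 of the 6 corpus libraries.

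Other donors were higher in colon than in corpus too. Papss1 and Papss2, which make the sulfate donor, were higher by 1.07 ± 0.16 and 1.09 ± 0.28 (limma, adjusted p = 0.000109 and 0.00836), and Slc35a2, the carrier of activated galactose, by 1.56 ± 0.34 (adjusted p = 0.00271). Gnpnat1 and Uap1, which make activated GlcNAc, were higher by 1.46 ± 0.24 and 1.30 ± 0.34 (adjusted p = 0.000239 and 0.0092). Pmm1, a phosphomannomutase, was the 1 gene of the list that was lower in colon than in corpus (-1.89 ± 0.33, adjusted p = 0.000418). Npl, which breaks down sialic acid, was higher in jejunum than in corpus by 1.63 ± 0.34 (adjusted p = 0.00104), and all of its colon signals lay under the floor. Gmppb, which makes activated mannose, was likewise higher in jejunum than in corpus by 1.15 ± 0.29 and lower in colon than in jejunum by -1.2 ± 0.29 (adjusted p = 0.00476 and 0.0122). These differences kept their direction and their call without the 3 libraries.

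Genes that build or take apart glycans by other routes were called at shares of the list that can be read against the same 32.9%, 18.3% and 14.4% of all probe sets. Of 33 tested probe sets for 27 other glycan-building genes, 3 were higher and 3 lower in jejunum than in corpus, 2 were higher in colon than in corpus and 1 was lower in colon than in jejunum. Of 23 probe sets for 18 genes of glycan trimming and breakdown, 6 were higher and 2 lower in jejunum than in corpus, 5 were higher in colon than in corpus, and 1 was higher and 2 lower in colon than in jejunum. Neu1, the lysosomal sialidase, was higher in colon than in corpus by 1.29 ± 0.30 and Fuca1, a lysosomal fucosidase, by 0.78 ± 0.19 (limma, adjusted p = 0.00393 and 0.00656). Siae, which removes acetyl groups from sialic acid, was higher in jejunum than in corpus by 1.05 ± 0.19 and lower in colon than in jejunum by -0.59 ± 0.19 (adjusted p = 0.000289 and 0.0438).

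The probe sets most like St6gal1 over the 24 arrays included genes of that branch. By Pearson correlation of log2 signal, the 5 nearest the dimmer St6gal1 probe set were Golm1, a Golgi membrane protein (0.949), Nans (0.947), Hsd11b2, which inactivates glucocorticoids (0.947), Gne (0.945) and Inpp5j (0.937). The 5 nearest the brighter one were Slc35a1 (0.947), Hk2, a hexokinase (0.943), Golm1 (0.935), Hsd11b2 (0.933) and Hao2 (0.929). For Fut2 they were St3gal3 (0.762), Zfp36l2 (0.760), Mknk2 (0.755), Sgip1 (0.745) and Rap1gap (0.743). The arrays share regions, so these values describe likeness and were not tested.

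Between germ-free and conventional mice no member was called with all 24 libraries. In the corpus 0 of 44 passed in limma, against a background of 0%, and 5 had an unadjusted p under 0.05. In the jejunum 0 passed against 0.465%, with 6 under an unadjusted 0.05. In the colon 0 passed against 0.0111%, with 3 unadjusted, and in the rectum 0 against 0.0111%, with 1 unadjusted. Averaged over the 4 regions 0 passed against 1.68%, with 7 unadjusted. The median log2 difference over the members was 0.01 in corpus, -0.20 in jejunum, 0.0048 in colon and 0.05 in rectum, beside 0.04, -0.02, 0.07 and 0.06 over all probe sets. Without the 3 libraries 1 member was called in the jejunum, against 0.508%, and none in the mean over regions, against 1.49%.

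Around the members, 4 genes of the supply and breakdown lists were called in the mean over regions, with all libraries or without the 3. With all libraries 1 of 27 supply and 2 of 23 breakdown probe sets were called, against 1.68% of all tested. Without the 3 libraries it was 1 of 27 and 1 of 22, against 1.49%. Siae was higher in germ-free mice by 0.78 ± 0.14 with all libraries (limma, adjusted p = 0.00586) and by 0.69 ± 0.13 without the 3 (adjusted p = 0.0167). Gfpt2, which makes hexosamine, was lower in germ-free mice by -0.91 ± 0.22 (adjusted p = 0.0426, and 0.0551 without the 3 libraries). Nans was lower by -0.48 ± 0.11 without the 3 libraries (adjusted p = 0.0418) and differed by -0.24 ± 0.29 with all (adjusted p = 0.701). A dim probe set of Arsa, a lysosomal sulfatase, was higher by 0.90 ± 0.22 (adjusted p = 0.039) and was not tested without the 3 libraries. All of these are from the fit with no block on array number.

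St6gal1 had the lowest p of the members in the jejunum. By the brighter probe set the conventional jejunum libraries read 137, 139 and 496 and the germ-free ones 38.1, 35.8 and 48.8. All 3 germ-free values lay under all 3 conventional ones, and the value of 496 was that of the library labelled conventional jejunum 3, which carried hindgut markers. Germ-free minus conventional was -2.38 ± 0.58 on the log2 scale (95% confidence interval -3.60 to -1.17), and it was not called (limma, adjusted p = 0.0776). Without the 3 libraries it was -1.77 ± 0.30, a 3.41-fold lower signal in germ-free mice, and was called (adjusted p = 0.00737). It was called too without germ-free jejunum 3 alone, the library with corpus markers (-2.52 ± 0.66, adjusted p = 0.0471), and in no other omission of a single library. By the dimmer one the conventional libraries read 56.5, 52.7 and 205 and the germ-free ones 40.5, 30.3 and 15.5, with a difference of -1.52 ± 0.62 (adjusted p = 0.287), and -0.88 ± 0.34 without the 3 (adjusted p = 0.261).

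Values of other genes in the same jejunum libraries stood beside this difference. The summed signal of 12 B and plasma cell markers was 16662 to 22625 in conventional and 4608 to 8571 in germ-free jejunum, and that of 6 leukocyte markers 1730 to 2614 and 910 to 1091. Of 23 probe sets for B and plasma cells 0 were called with a median log2 difference of -1.32, and of 9 for leukocytes 1 was lower. Cd79a, a part of the B cell receptor, read 449, 269 and 221 in conventional and 76.1, 159 and 226 in germ-free jejunum. St6gal1 is known in B cells as well as in epithelium, and the part of B cells in the difference was not tested. Slc35a1 read 183, 159 and 671 in conventional and 96.6, 76.4 and 137 in germ-free jejunum, a difference of -1.43 ± 0.59 (limma, adjusted p = 0.299), and Nans differed by -1.01 ± 0.58 (adjusted p = 0.489). Nans read 615, 567 and 1890 in conventional and 387, 544 and 382 in germ-free jejunum. The 671 and the 1890 were those of conventional jejunum 3, which carried hindgut markers, so both differences lean on that library.

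In the other regions St6gal1 showed no call. By the brighter probe set germ-free minus conventional was 0.75 ± 0.58 in the corpus, -0.20 ± 0.58 in the colon and 0.35 ± 0.58 in the rectum, and by the dimmer one 1.48 ± 0.62, -0.87 ± 0.62 and -0.01 ± 0.62. The corpus values rested on germ-free corpus 3, at 366 by the brighter probe set and 198 by the dimmer one: without the 3 libraries the corpus differences were -0.03 ± 0.30 and 0.60 ± 0.34. The moderated F test of whether the status effect differed between regions gave adjusted p of 0.89 for the brighter probe set and 0.898 for the dimmer one (limma). None of the 44 members passed that test, against a background of 0.0221%, and 4 had an unadjusted p under 0.05. Fut8 had the lowest value of the members in it (limma, adjusted p = 0.851).

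Fut2, which adds the terminal fucose of blood group H structures, was dim everywhere. In the corpus it read 49.3, 55.7 and 14.2 in conventional and 9.2, 13.4 and 15.4 in germ-free mice. In the jejunum it read 46.5, 11.7 and 65.0 against 6.7, 4.6 and 11, and in the colon 60.6, 85.2 and 10 against 29.1, 16.5 and 25.5. In the rectum it read 20.8, 61.4 and 95.4 against 32.7, 11.5 and 113. The 65.0, the germ-free corpus value of 15.4 and the conventional rectum value of 20.8 came from the 3 libraries opposed by their markers. Of the other jejunum values only the 46.5 lay above the floor. All 6 germ-free corpus and jejunum values lay under the floor of 21.2, and so did 2 of the 6 conventional ones there. Germ-free minus conventional, on the floored log2 scale, was -0.87 ± 0.62 in corpus, -0.92 ± 0.62 in jejunum, -0.93 ± 0.62 in colon and -0.22 ± 0.62 in rectum. The first 2 set conventional signals against a group at the floor. The mean over regions was -0.74 ± 0.31 (95% confidence interval -1.38 to -0.09; limma, adjusted p = 0.221), and -0.80 ± 0.31 without the 3 libraries (adjusted p = 0.213). Between regions Fut2 gave no call, with colon minus corpus at 0.27 ± 0.44 and jejunum minus corpus at 0.02 ± 0.44.

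**Figure D4:**
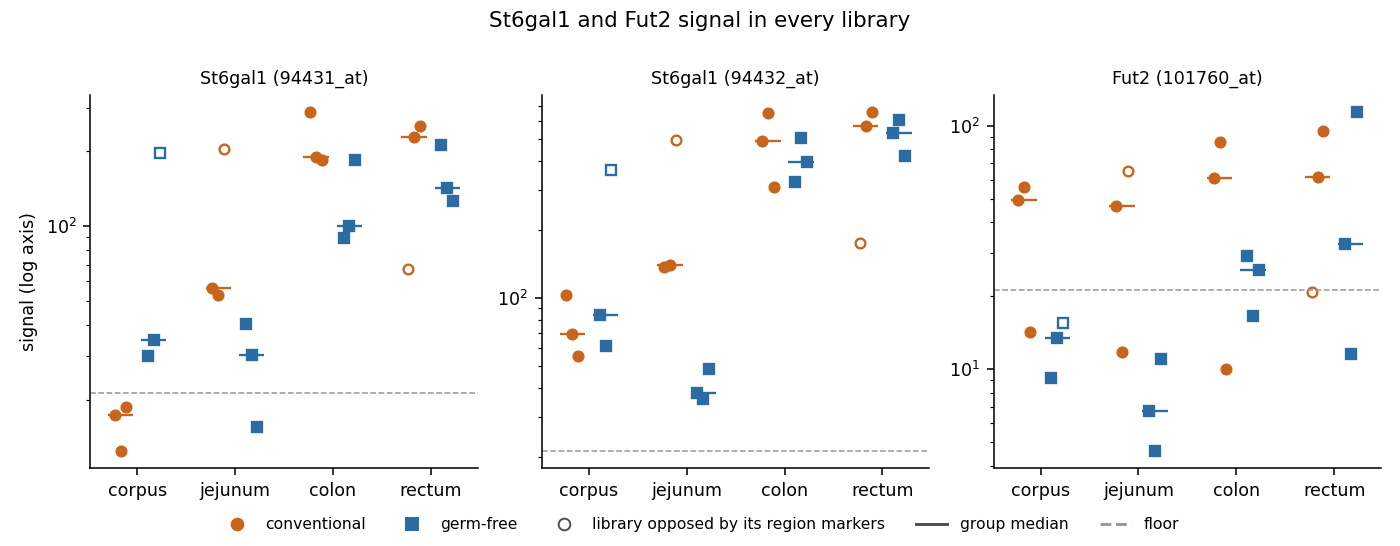
Signal (vertical log axis) of the dimmer (left) and brighter (middle) St6gal1 probe sets and of Fut2 (right) by region in conventional (circles) and germ-free (squares) libraries, with group medians as bars, the floor of 21.2 as a dashed line and the 3 libraries opposed by their markers as open symbols. In the jejunum the germ-free St6gal1 values of 35.8 to 48.8 by the brighter probe set lie under the conventional ones, and all germ-free Fut2 values in corpus and jejunum lie under the floor.

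The members of lowest p elsewhere did not pass either. In the corpus Fut8 read 82.6, 103 and 105 in conventional and 123, 230 and 313 in germ-free mice, and the groups did not overlap. The difference was 1.11 ± 0.30 (limma, adjusted p = 0.293). It was 0.81 ± 0.29 without the 3 libraries and was called without germ-free corpus 1 alone (1.48 ± 0.29, adjusted p = 0.0159). The 313 was that of germ-free corpus 3 and the 230 that of germ-free corpus 2, which carried hindgut markers and Car1. That omission left only these libraries for germ-free corpus. Fut8 was higher in colon than in corpus, and the part of colon RNA in the difference was not tested. St6galnac3, a sialyltransferase of O-glycans and gangliosides, differed there by 0.88 ± 0.37 (adjusted p = 0.525). Its highest germ-free corpus value, 80.6, was that of germ-free corpus 3.

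In the jejunum the dimmer Galnt4 probe set gave -0.79 ± 0.26 (limma, adjusted p = 0.174) and the brighter B3gnt2 probe set -0.94 ± 0.36 (adjusted p = 0.251), with the former not overlapping between groups. The highest conventional value of the brighter B3gnt2 probe set, 274, was that of conventional jejunum 3. The dimmer B3gnt2 probe set read 33.1, 17.3 and 91.7 in conventional and 71, 47.2 and 77.1 in germ-free jejunum, so the direction depends on the probe set. In the colon the brighter probe set of Galnt3, a polypeptide GalNAc transferase, gave 0.72 ± 0.26, B4galt1 -0.73 ± 0.30 and Fut7, which makes leukocyte selectin ligands, 0.87 ± 0.40 (adjusted p = 0.602, 0.602 and 0.612). In the rectum Chst3, which sulfates chondroitin, read 24.4, 22.0 and 20.2 in conventional and 93.8, 70.1 and 54.9 in germ-free mice. The groups did not overlap, and the difference was 1.66 ± 0.55 (adjusted p = 0.982). The conventional values lay near the floor, and the 24.4 was that of conventional rectum 1. Lack of overlap, here and for Fut8, Galnt4 and St6gal1, describes members picked by low p. The share of all probe sets without overlap is not given here. St6galnac2 and St8sia5 followed in the rectum with 0.64 ± 0.33 and 0.87 ± 0.53 (adjusted p = 0.982 for both). Their lowest conventional rectum values, 118 and 44.2, were those of conventional rectum 1.

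Averaged over regions, B4galt1 had the lowest adjusted p of the members with all libraries. Its mean signal was 999 ± 264 (SD, n = 12) in conventional and 719 ± 240 in germ-free mice, and the ranges overlapped. The log2 difference was -0.50 ± 0.15 (limma, adjusted p = 0.0926), and -0.48 ± 0.16 without the 3 libraries (adjusted p = 0.156). Without the 3 the brighter St6gal1 probe set had the lowest, with -0.57 ± 0.15 (adjusted p = 0.066). Galnt11, a polypeptide GalNAc transferase, differed by 0.36 ± 0.13 and the dimmer Galnt4 probe set by -0.36 ± 0.13 (adjusted p = 0.16 and 0.166).

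**Figure D5:**
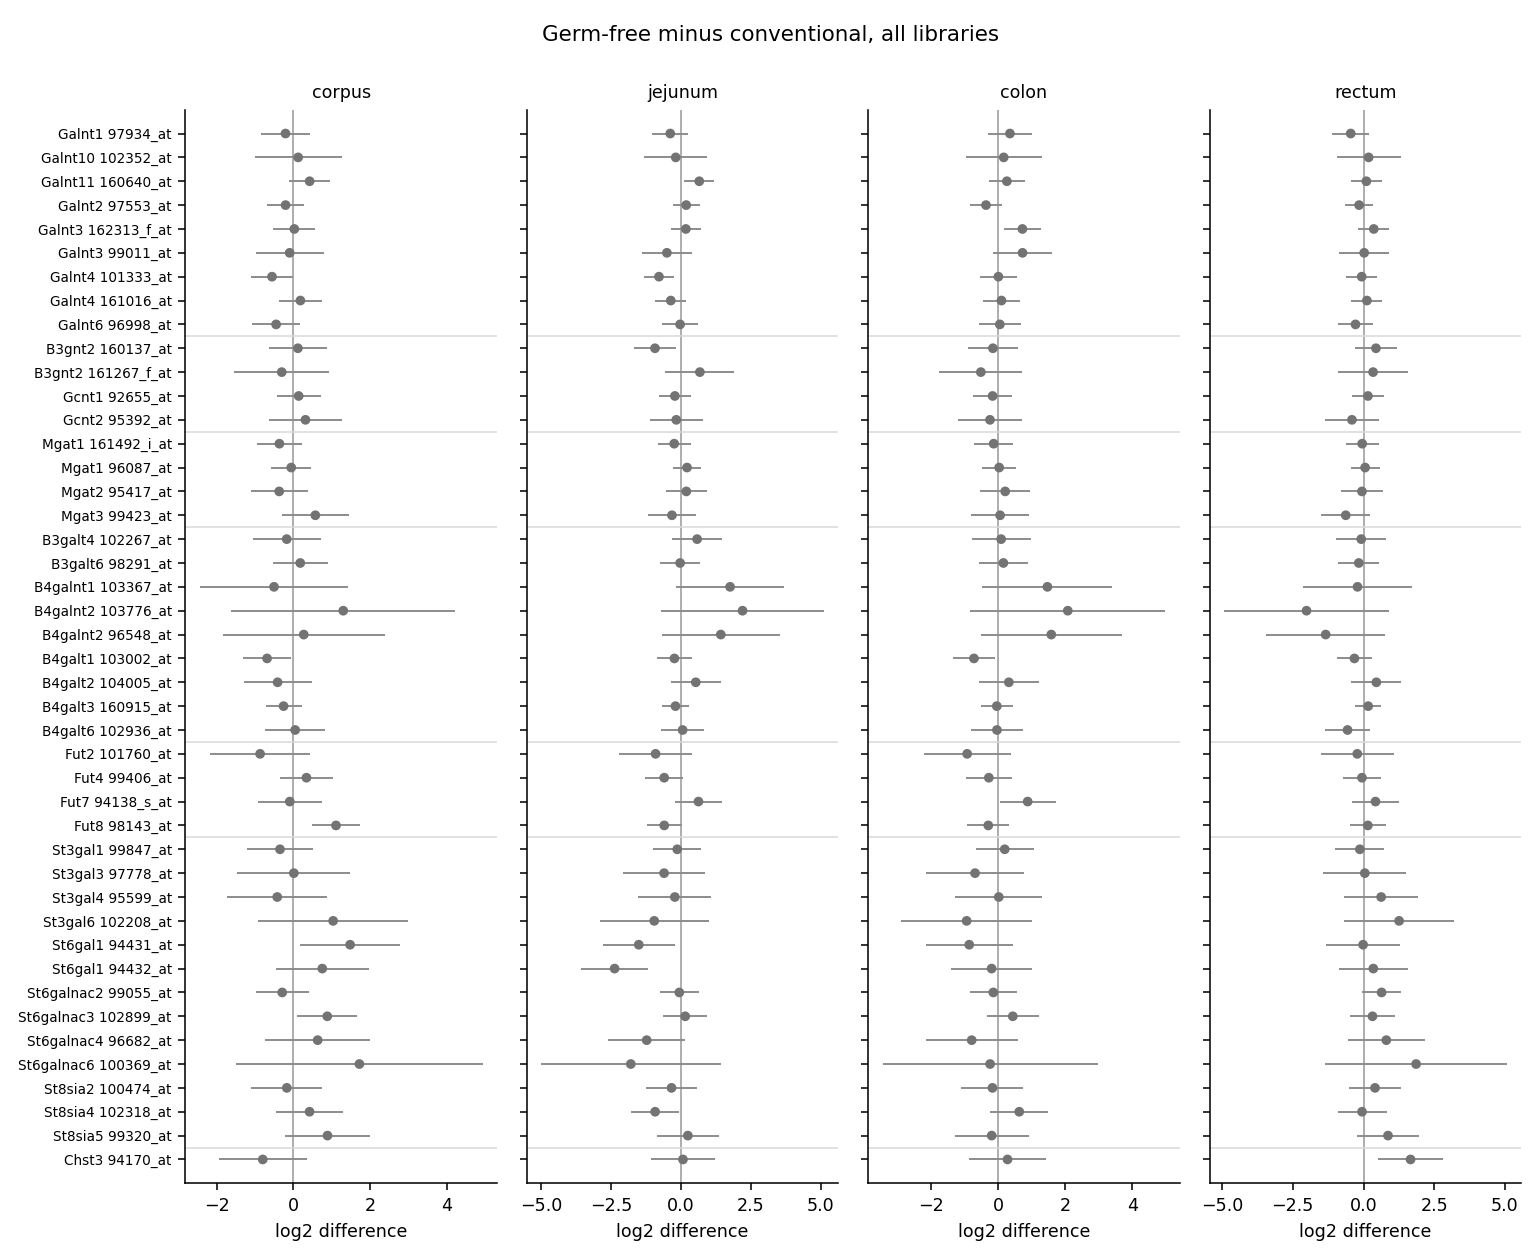
Germ-free minus conventional log2 difference (horizontal axis) with its 95% confidence interval for the 44 tested members in each region with all libraries, where red would mark a limma adjusted p under 0.05. No point is red, and the brighter St6gal1 probe set lies farthest to the left in jejunum at -2.38.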

How the data were processed

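The authors deposited 1 table of signal intensity for 12488 probe sets on 24 arrays; the unit follows from the values, and the signal algorithm, software and detection calls are not given in the sources used here. Trimmed means were nearly equal on all arrays, so the deposited intensity was taken as already scaled, and no further scaling was applied. Genes were named through the platform annotation: 10855 probe sets had 1 gene, 396 several and 1237 none. All 60 member probe sets matched RefSeq by Entrez identifier. Probe sets of a gene were kept apart.

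After removal of 66 control probe sets, signals were floored at 21.2 (25th percentile) and log2 was taken. Probe sets above 51.5 (40th percentile) on at least 3 arrays were tested. limma 3.58.1 in R 4.3.3 fitted 1 mean for each of 8 groups with an intensity trend; tests were two-sided, with Benjamini-Hochberg adjustment over all 9033 probe sets tested (8856 without 3 libraries) at 0.05. Differences are ± SE. A fold is on the floored scale. Regional differences average both microbial states. The steps were tested on simulated data. Other settings changed the normalization, floor, filter or trend, blocked on array number or left libraries out.

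Members named are Fut2, St6gal1, every member called in any comparison with all libraries or without 3, and the 3 of lowest p where a status comparison had no call. The members, lists, motifs and omitted libraries were chosen with earlier results of these data known.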

Additional observations from a re-analysis of the deposited data

How the results depend on the processing

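With quantile normalization, equalised medians, another floor or filter, no intensity trend or a single region in the fit, each count of called members stayed within 1.5 times that given above, or stayed at 0. Leaving out the 3 libraries opposed by their markers moved the counts to 1 for the jejunum status comparison, 17 for jejunum minus corpus, 19 for colon minus jejunum and 27 for any regional difference, and leaving out germ-free colon 1 and germ-free rectum 1 as well, 5 in all, gave 1, 17 and 18 for the first 3 of these. Leaving out 1 array at a time gave 0 to 1 calls for the corpus status comparison, 0 to 1 for the jejunum and 3 to 16 for colon minus jejunum. Signs turned for St6gal1 by the brighter probe set in the corpus (-0.033 without 3 and without 5 libraries, and -0.033 to 1.25 over single omissions), in the colon (-0.50 to 0.046) and in the rectum (-0.26 without 3, -0.28 without 5, and -0.26 to 0.70 over single omissions). They also turned for the dimmer one in the rectum (-0.63 to 0.33) and for Fut2 in the rectum (-0.92 to 0.29); none of these was called. The cause was not tested.

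By the rule that every pair must correlate above 0.1, equal array numbers did not pair the samples: of 36 pairs of the same status and number, 16 did (range -0.50 to 0.67), against 8 of 72 pairs of the same status and unlike numbers, and 17 of 24 arrays correlated best with their own number, a hint of a shared number from the data and not from the design. With the number as a replicate block the counts were 12 for jejunum minus corpus, 10 for colon minus corpus and 12 for colon minus jejunum, and with a random block (correlation 0.12) 13, 11 and 14. No member had a status call with all libraries, and the pairing changed none. Over all probe sets the status calls in the mean over regions went from 152 to 204 with the number fixed. With the random block they fell to 37. Whether the calls of Siae, Gfpt2 and Arsa stood with a block is not given here. The number of arrays limits precision, and signals near the floor, such as those of Fut2, bound a fold from below.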

Other observations

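Mucin backbones, the proteins that carry many of the O-glycans, were chosen as a list with earlier results of these data known, and 5 probe sets for 4 genes were tested. Muc5ac, the gel-forming mucin of the stomach surface, was lower in colon than in corpus by -4.85 ± 0.75 on the log2 scale, and Muc1, a membrane mucin, by -2.58 ± 0.58 (limma, adjusted p = 0.000123 and 0.00346). The membrane mucin Muc3 was higher in colon than in corpus by 6.37 ± 0.78, and both probe sets of the membrane mucin Muc13 were higher, by 4.21 ± 0.52 and 1.94 ± 0.28 (adjusted p = 3.24e-05, 3.24e-05 and 5.81e-05). None of the 5 was called between colon and jejunum with all libraries. Without the 3 libraries Muc1 was higher in colon than in jejunum by 1.92 ± 0.33 (limma, adjusted p = 0.00023). The dimmer Muc13 probe set was then lower in colon by -0.72 ± 0.11 (adjusted p = 7.02e-05). Between germ-free and conventional jejunum none was called with all libraries, and without the 3 libraries the dimmer Muc13 probe set was lower in germ-free mice (-1.06 ± 0.16, adjusted p = 0.00439). Averaged over regions it was also lower without the 3 (-0.51 ± 0.08, adjusted p = 0.0055). The brighter Muc13 probe set was not called in either of these status comparisons. Its jejunum signals without the 3 libraries were 6075 and 7259 in conventional and 3607, 2319 and 3006 in germ-free mice.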
